A study of Homo sapiens and Mus musculus with 12 samples.

Results

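The genes described here are 10 members of the NF-κB system, measured by RNA-seq in cancer cells treated with ponatinib. They are 4 subunits (*NFKB1*, *NFKB2*, *RELA*, *RELB*), 3 genes of the IκB family (*NFKBIA*, *NFKBIE*, *NFKBIZ*) and 3 other feedback and target genes (*TNFAIP3*, *TNFAIP2*, *BIRC3*). They were taken by symbol, as 10 of the 63677 genes listed in the human count files and the 10 mouse genes of the same symbols among 47729, and all 10 passed the filter on low counts in each line. MDA-MB-231 is a human triple-negative breast cancer line and 4T1 is a mouse mammary carcinoma line, both labelled as wild-type epithelial cells. In each line, 3 libraries came from cells given 1 μM ponatinib, an inhibitor of several tyrosine kinases, for 24 h, and 3 came from cells given the solvent DMSO, which makes 12 libraries. Each line is a single cultured population, and no label says whether its 3 libraries per group came from separate cultures, so the p-values measure the spread between these libraries, which may be technical.

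NF-κB is a family of transcription factors that work as dimers and drive genes of inflammation and cell survival. In resting cells, IκB proteins hold the dimers in the cytoplasm. In the canonical pathway, the IκB kinase (IKK) complex marks IκB for degradation and dimers such as RELA with p50, the product of *NFKB1*, enter the nucleus. In the non-canonical pathway, the kinase encoded by *MAP3K14* leads to processing of the *NFKB2* product into p52, the partner of RELB. Several targets of NF-κB are its own inhibitors, among them *NFKBIA* and *TNFAIP3*, and this negative feedback limits a response in time. MDA-MB-231 cells are known for basal NF-κB activity.

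The DNA upstream of these genes is shown first because several of them carry the κB consensus, the 10-base sequence that NF-κB dimers recognize. Of the 10 human genes, 8 matched the RefSeq promoter table (GRCh38.p14), with 13 windows of 250 bases before a transcription start. For *NFKBIE* and *RELB* no sequence is given. The consensus, searched on both strands, was found in 6 of the 8 genes and in 8 of the 13 windows, against 10.0% of all 35116 human windows of this length and 11.8% of the 27305 genes with a window. *RELA* and *TNFAIP2* held no match in their windows. In windows of the same length before the canonical transcript starts of the 8 mouse genes (GENCODE vM39 on GRCm39), *Nfkbia* and *Tnfaip3* held a match, against 7.6% of 21770 windows. A match describes letters and is not evidence of binding.

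The stretches below were chosen because the genes behind them differ in their response to ponatinib. They run 5′ to 3′ on the strand of the gene and are given for 1 window per gene. Bases that overlap an annotated exon of a protein-coding gene are left out, and exons of other genes were not looked for. Capitals show matches to the consensus on either strand, with overlapping matches joined. The last base of the *NFKB2* match nearest the start falls in an exon and is not shown. *NFKBIA* lies at chr14:35404750-35404999 (minus strand), *TNFAIP3* at chr6:137867009-137867213, *BIRC3* at chr11:102317234-102317483, *NFKB1* at chr4:102501109-102501329 and *NFKB2* at chr10:102395455-102395692 (all plus strand) of GRCh38.p14, and mouse *Nfkbia* at chr12:55539433-55539682 (minus strand) of GRCm39.
NFKBIA: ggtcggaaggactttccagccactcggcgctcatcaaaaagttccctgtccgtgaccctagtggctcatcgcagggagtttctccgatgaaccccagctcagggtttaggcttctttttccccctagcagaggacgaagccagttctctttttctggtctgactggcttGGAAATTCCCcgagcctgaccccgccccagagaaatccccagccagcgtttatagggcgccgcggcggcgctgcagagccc
TNFAIP3: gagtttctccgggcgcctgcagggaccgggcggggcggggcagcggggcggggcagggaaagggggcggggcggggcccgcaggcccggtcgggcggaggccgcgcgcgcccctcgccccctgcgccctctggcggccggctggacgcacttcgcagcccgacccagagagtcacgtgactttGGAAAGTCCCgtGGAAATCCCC
BIRC3: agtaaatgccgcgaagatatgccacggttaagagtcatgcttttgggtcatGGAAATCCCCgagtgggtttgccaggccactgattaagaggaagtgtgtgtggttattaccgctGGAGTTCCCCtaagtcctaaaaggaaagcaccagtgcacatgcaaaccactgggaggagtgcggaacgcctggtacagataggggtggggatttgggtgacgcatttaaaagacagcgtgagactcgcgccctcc
NFKB1: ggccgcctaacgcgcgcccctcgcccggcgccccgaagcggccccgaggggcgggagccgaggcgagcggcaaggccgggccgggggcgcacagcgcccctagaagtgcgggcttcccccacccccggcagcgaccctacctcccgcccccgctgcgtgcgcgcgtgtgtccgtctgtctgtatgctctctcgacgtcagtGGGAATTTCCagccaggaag
NFKB2: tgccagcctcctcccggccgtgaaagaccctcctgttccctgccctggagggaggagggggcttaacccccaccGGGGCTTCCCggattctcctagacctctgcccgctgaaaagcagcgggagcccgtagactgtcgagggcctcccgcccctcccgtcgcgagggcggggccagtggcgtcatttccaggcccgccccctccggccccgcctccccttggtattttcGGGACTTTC
Mouse Nfkbia: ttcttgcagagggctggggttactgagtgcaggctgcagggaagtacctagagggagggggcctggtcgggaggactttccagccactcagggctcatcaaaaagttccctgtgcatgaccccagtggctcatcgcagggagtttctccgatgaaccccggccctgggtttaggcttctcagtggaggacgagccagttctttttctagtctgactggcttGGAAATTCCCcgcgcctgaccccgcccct
The matching letters 81 bases before the human *NFKBIA* start and 29 bases before the mouse start taken here are the same, GGAAATTCCC. *BIRC3* and *TNFAIP3* each hold 2 matches, 199 and 135 bases before the start in *BIRC3* and 67 and 55 bases before it in *TNFAIP3*, and in both genes one of them reads GGAAATCCCC. Of the 6 human genes with a match, *NFKBIA* rose in MDA-MB-231, *TNFAIP3*, *BIRC3*, *NFKB1* and *NFKBIZ* fell, and *NFKB2* was not called. Without a match in their windows, *RELA* fell and *TNFAIP2* rose.

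A human library held 15012884 to 17301760 counts and a mouse library 17800675 to 18951493. Levels are given as CPM, the counts of a gene relative to the TMM-scaled total of its library. Differences between ponatinib and DMSO were tested within each line by edgeR's quasi-likelihood test on the counts, with Benjamini-Hochberg adjustment over 14610 human or 13286 mouse genes, and a gene is called lower or higher at an adjusted p under 0.05. Against the epithelial label, the lines carried markers of both kinds: *KRT8* stood at 889.8 CPM and the mesenchymal *VIM* at 1288 CPM in MDA-MB-231 with DMSO, where *EPCAM* was at 6.44 CPM, and *Krt8* stood at 2389 CPM, *Vim* at 3257 CPM and *Fn1* at 3414 CPM in 4T1. The mesenchymal marker *CDH2* was near 0 in both lines, with DMSO means of 0.128 CPM in MDA-MB-231 and 0.0931 CPM in 4T1. *CDH1*, which encodes E-cadherin, was listed at 0 in the 3 MDA-MB-231 DMSO libraries and at 830.5 CPM on average in 4T1. *ESR1* and *PGR*, receptors that triple-negative tumours lack, were under 1 CPM in MDA-MB-231, where *ERBB2* stood at 98.1 CPM with DMSO. Of 8 leukocyte markers, 7 were under 1 CPM in the human DMSO libraries and 6 in the mouse ones, and the gene of CD45 stood at 0 CPM (*PTPRC*) and 0.111 CPM (*Ptprc*). The 8 markers together held 2.01 to 2.52 CPM with DMSO and 1.39 to 2.99 CPM with ponatinib in MDA-MB-231. In 4T1 they held 225 to 251 CPM with DMSO and 139.9 to 158 CPM with ponatinib, nearly all of it *Cd14*, whose part in the results was not tested. In bulk RNA, fewer cells of a type and less RNA per cell cannot be told apart.

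In MDA-MB-231, 6 of the 10 genes were lower with ponatinib, 3 were higher and 1 was not called. In 4T1, 2 were lower, 5 were higher and 3 were not called. Calls are common in these data: of all human genes tested, 26.8% were called lower and 27.2% higher, and of all mouse genes 29.4% were called lower and 29.5% higher. The 10 human genes had a median log2 fold change of -0.36, beside 0.02 for all human genes, and the 10 mouse genes one of 0.18, beside -0.00014 for all mouse genes. The 3 ponatinib and 3 DMSO libraries did not overlap for 8 of the 10 human genes, beside 60.4% of all human genes, and for 7 of the 10 mouse genes, beside 63.4% of all mouse genes. Both lines shared the direction of the call for 4 genes: *RELA* and *NFKBIZ* were lower and *NFKBIA* and *RELB* were higher in each. *NFKBIE* and *BIRC3* were called in opposite directions, as were 10.6% of the 9838 genes tested in both lines under a shared symbol.

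**Figure D1:**
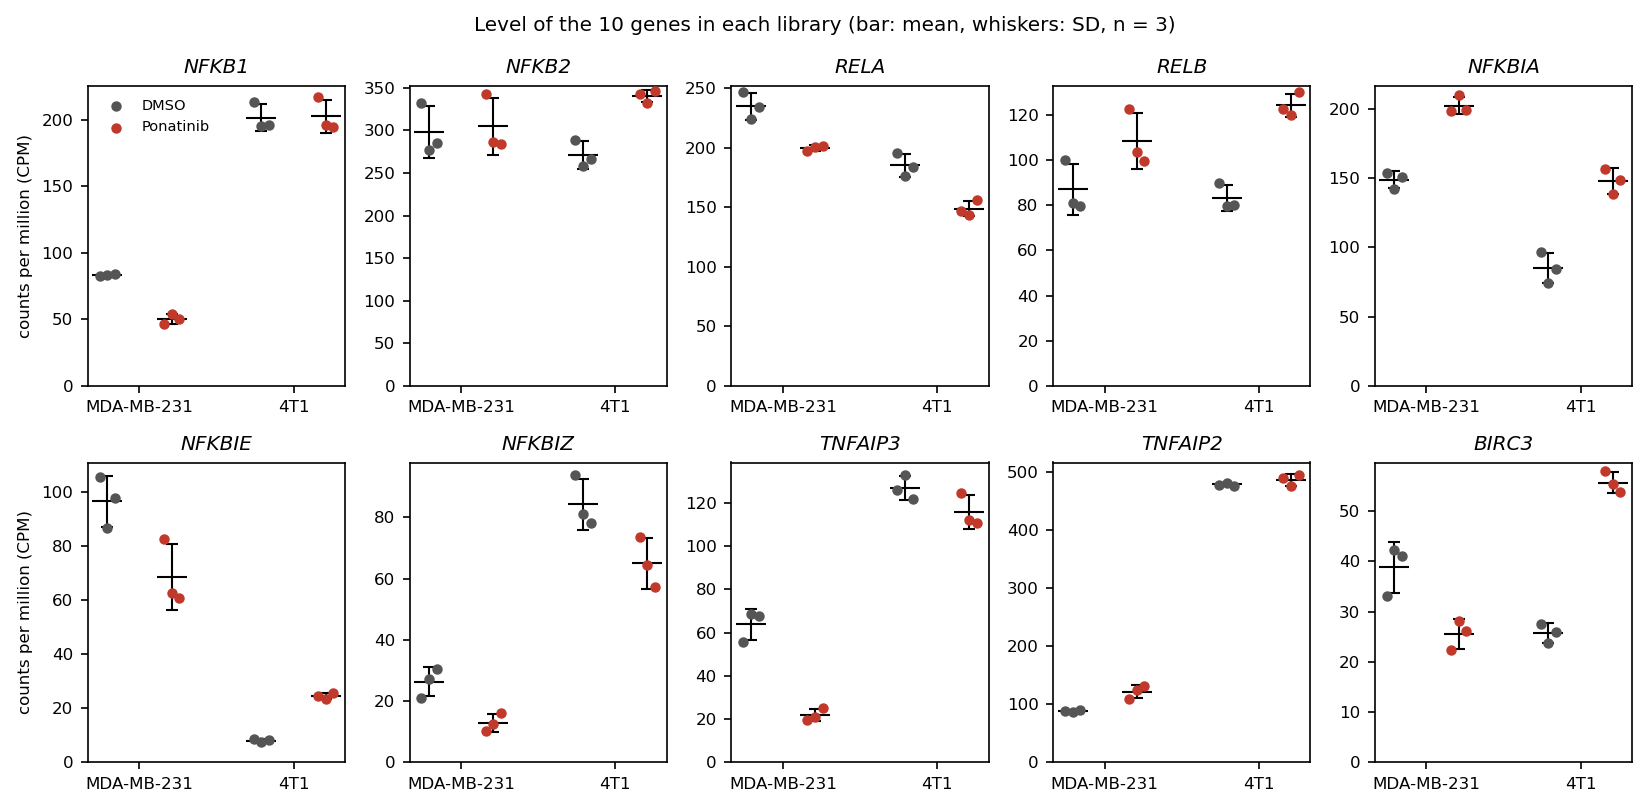
Level in CPM (y axis, linear from 0) of each of the 10 genes in every library, with 3 DMSO and 3 ponatinib libraries per line on the x axis, the bar at the mean and whiskers of 1 SD. *TNFAIP3* falls from 55.5–68.5 to 19.7–25.0 CPM in MDA-MB-231 while its mouse libraries overlap, and *BIRC3* falls in the human line and rises in the mouse line.

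Among the subunits, *RELA* was lower and *RELB* higher in both lines, while *NFKB1* was called lower in MDA-MB-231 and *NFKB2* was called higher in 4T1. *NFKB1* (ENSG00000109320, chromosome 4 from 102501330 to 102617302 of hg38) encodes p105, the precursor of p50. Its level in MDA-MB-231 was 82.3, 83.0 and 84.4 CPM with DMSO and 46.7, 53.8 and 50.6 CPM with ponatinib. Every ponatinib library lay below every DMSO library, and the level was 1.65-fold lower (log2 fold change -0.72, standard error 0.08, n = 3 per group, adjusted p = 1.72e-05 by edgeR). In 4T1, *Nfkb1* stood at 213, 195 and 196 CPM with DMSO and at 217, 196 and 195 CPM with ponatinib. These groups overlapped, and the log2 fold change of 0.01 (standard error 0.07) was not called (adjusted p = 0.942 by edgeR).

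*RELA* (ENSG00000173039, chromosome 11 from 65653599 to 65663090) encodes the p65 subunit, which carries the transactivation domain of the canonical dimer. It was measured at 247, 224 and 234 CPM with DMSO and at 197, 201 and 201 CPM with ponatinib in MDA-MB-231. *Rela* was measured at 195, 176 and 184 CPM with DMSO and at 147, 143 and 156 CPM with ponatinib in 4T1. In both lines the ponatinib libraries lay below the DMSO libraries by a small margin, with log2 fold changes of -0.24 (standard error 0.07, adjusted p = 0.0152 by edgeR) and -0.31 (standard error 0.07, adjusted p = 0.00179). In MDA-MB-231 the call was lost when ponatinib replicate 2 was left out (adjusted p = 0.0504) and when total counts were used without TMM, a scaling that moved the median of all genes to 0.11 and *RELA* to -0.14 (adjusted p = 0.0956).

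*NFKB2* (ENSG00000077150, chromosome 10 from 102394110 to 102402524) encodes p100, which is both the precursor of p52 and an IκB-like inhibitor. In MDA-MB-231 it stood at 332, 277 and 285 CPM with DMSO and at 343, 286 and 284 CPM with ponatinib, which overlap (log2 fold change 0.03, standard error 0.10, adjusted p = 0.811 by edgeR). *Nfkb2* in 4T1 rose from 289, 258 and 267 CPM with DMSO to 342, 332 and 346 CPM with ponatinib. All 3 ponatinib libraries were above the DMSO libraries in the mouse line (log2 fold change 0.33, standard error 0.07, adjusted p = 0.00138).

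*RELB* (ENSG00000104856, chromosome 19 from 45001461 to 45038192) encodes the partner of p52. It was called higher in both lines. In MDA-MB-231 the DMSO libraries held 100.01, 81.1 and 79.8 CPM and the ponatinib libraries 123, 103 and 99.7 CPM, so the groups overlapped at DMSO replicate 1 and ponatinib replicate 3. Within same-numbered replicates the level was higher with ponatinib in 3 of 3 pairs, by 0.30, 0.35 and 0.32 on the log2 scale. The log2 fold change of 0.32 (standard error 0.11) had an adjusted p of 0.0259 by edgeR, and the call was lost without DMSO replicate 2 (adjusted p = 0.114), DMSO replicate 3 (0.115) or ponatinib replicate 1 (0.0685). *Relb* in 4T1 was measured at 89.8, 79.8 and 80.1 CPM with DMSO and 122, 120.1 and 130.1 CPM with ponatinib. Here the groups stood apart (log2 fold change 0.58, standard error 0.08, adjusted p = 1.50e-05).

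The 3 IκB genes did not share a direction within either line. *NFKBIA* (ENSG00000100906, chromosome 14 from 35401079 to 35404749) encodes IκBα, the main cytoplasmic inhibitor and a rapid NF-κB target. Its level in MDA-MB-231 was 154, 142 and 151 CPM with DMSO and 199, 209.7 and 199 CPM with ponatinib. *Nfkbia* in 4T1 was at 96.4, 74.5 and 84.5 CPM with DMSO and at 157, 138 and 148 CPM with ponatinib. In each line all ponatinib libraries exceeded all DMSO libraries, by 1.36-fold in MDA-MB-231 (log2 fold change 0.44, standard error 0.07, adjusted p = 0.000296 by edgeR) and 1.74-fold in 4T1 (0.80, standard error 0.09, adjusted p = 4.22e-06).

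*NFKBIE* (ENSG00000146232, chromosome 6 from 44258166 to 44265788) encodes IκBε, another feedback inhibitor that acts later than IκBα. In MDA-MB-231 it was at 106, 86.9 and 97.8 CPM with DMSO and at 82.8, 62.7 and 60.8 CPM with ponatinib. The groups did not overlap, although ponatinib replicate 1 came within a few CPM of the lowest DMSO library, and the gene was lower (log2 fold change -0.49, standard error 0.12, adjusted p = 0.00447 by edgeR). *Nfkbie* (ENSMUSG00000023947, chromosome 17 from 45866585 to 45874661 of GRCm39) was at 8.56, 7.50 and 8.20 CPM with DMSO and at 24.7, 23.7 and 25.9 CPM with ponatinib in 4T1. This 3.06-fold rise was the largest change among the 10 genes in either line (log2 fold change 1.61, standard error 0.11, adjusted p = 3.01e-08), from 135 to 151 counts per DMSO library.

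*NFKBIZ* (ENSG00000144802, chromosome 3 from 101827991 to 101861022) encodes IκBζ, a nuclear member of the family that acts as a cofactor at secondary NF-κB targets. It was lower in both lines. The MDA-MB-231 libraries held 21.2, 27.3 and 30.6 CPM with DMSO and 10.3, 12.4 and 16.1 CPM with ponatinib. The 4T1 libraries held 93.7, 81.0 and 78.1 CPM with DMSO and 73.6, 64.3 and 57.1 CPM with ponatinib. The groups stood apart in each line, with log2 fold changes of -1.02 (standard error 0.17, adjusted p = 0.000384 by edgeR) and -0.37 (standard error 0.10, adjusted p = 0.00475). Human *NFKBIZ* shares 15753 bases of its locus with *NXPE3* on the same strand.

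*TNFAIP3* (ENSG00000118503, chromosome 6 from 137867214 to 137883314) encodes A20, a ubiquitin-editing enzyme that shuts off signals upstream of IKK. Its level in MDA-MB-231 was 55.5, 68.5 and 67.6 CPM with DMSO and 19.7, 21.2 and 25.0 CPM with ponatinib. The ponatinib libraries lay far below the DMSO libraries, a 2.905-fold fall and the largest fall among the 10 genes (log2 fold change -1.54, standard error 0.12, adjusted p = 9.25e-07 by edgeR). *Tnfaip3* in 4T1 was at 126, 133 and 122 CPM with DMSO and at 125, 112 and 111 CPM with ponatinib. These groups overlapped, and the log2 fold change of -0.13 (standard error 0.08) was not called (adjusted p = 0.146), although the level was lower within 3 of 3 same-numbered pairs.

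*BIRC3* (ENSG00000023445, chromosome 11 from 102317484 to 102339403) encodes cIAP2, an inhibitor of apoptosis and ubiquitin ligase at TNF receptor complexes. In MDA-MB-231 it was at 33.0, 42.2 and 41.1 CPM with DMSO and at 22.3, 28.2 and 26.2 CPM with ponatinib. *Birc3* (ENSMUSG00000032000, chromosome 9 from 7845790 to 7873229) in 4T1 was at 27.5, 23.7 and 26.0 CPM with DMSO and at 57.9, 55.3 and 53.8 CPM with ponatinib. The groups stood apart in both lines and in opposite directions, 1.52-fold lower in the human line (log2 fold change -0.60, standard error 0.12, adjusted p = 0.00128 by edgeR) and 2.16-fold higher in the mouse line (1.11, standard error 0.09, adjusted p = 9.74e-08). The close paralog *BIRC2*, which encodes cIAP1 and was looked at after its values were seen, was also lower in MDA-MB-231 (log2 fold change -0.39) and higher in 4T1 (0.49), and reads shared between the paralogs cannot be told apart here.

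*TNFAIP2* (ENSG00000185215, chromosome 14 from 103121476 to 103137439) is a TNF-induced gene linked to membrane protrusions. The MDA-MB-231 libraries held 87.7, 86.5 and 89.6 CPM with DMSO and 109, 125 and 131 CPM with ponatinib. *Tnfaip2* in 4T1 was at 478, 482 and 476 CPM with DMSO and at 489, 475 and 494 CPM with ponatinib. It was higher in the human line without overlap (log2 fold change 0.47, standard error 0.08, adjusted p = 0.000633 by edgeR) and not called in the mouse line (0.02, standard error 0.07, adjusted p = 0.801), where the groups overlapped. Antisense or overlapping genes are annotated at 5 of the 10 human loci and 7 of the 10 mouse loci, and since the strand setting of the counting is not given in the sources used here, their reads cannot be told apart.

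The response itself was then compared between the lines, as the interaction of line and treatment over 12488 genes with the same symbol in both species. It was called for 6 of the 10 genes. Of all genes compared 41.9% were called, and these genes include some that were not tested in both lines. The differences given here are the log2 fold change in 4T1 minus that in MDA-MB-231, as estimated in a joint fit of all libraries. The median over all genes is -0.04. The joint fit scales the libraries over the shared genes, so its values are not exact subtractions of the fold changes given above. *NFKBIA*, for example, had 0.44 and 0.80 in the separate fits of MDA-MB-231 and 4T1 and 0.28 in the joint fit. *NFKBIE* differed most, by 2.03 (standard error 0.17, adjusted p = 1.88e-08 by edgeR), followed by *BIRC3* with 1.64 (standard error 0.15, adjusted p = 9.04e-08) and *TNFAIP3* with 1.33 (standard error 0.14, adjusted p = 3.41e-07). *NFKB1* differed by 0.66 (standard error 0.11, adjusted p = 6.42e-05), and *TNFAIP2* by -0.52 (standard error 0.11, adjusted p = 0.000620), the only called difference in which the human gene moved higher.

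*NFKBIZ* fell less in 4T1, by a difference of 0.57 (standard error 0.21, adjusted p = 0.0302 by edgeR), but this call was lost without any of 5 single libraries (adjusted p of 0.0534 to 0.0987 without 4T1 ponatinib replicate 1, MDA-MB-231 DMSO replicate 2 or 3, or MDA-MB-231 ponatinib replicate 1 or 2). The difference was not called for *RELA* (-0.15, adjusted p = 0.252), *RELB* (0.19, adjusted p = 0.307), *NFKB2* (0.22, adjusted p = 0.168) or *NFKBIA* (0.28, adjusted p = 0.0721). With the replicate number as a block, *NFKB2* (0.23, adjusted p = 0.0101) and *NFKBIA* (0.29, adjusted p = 0.00412) were called as well. The same happened for *NFKB2* without MDA-MB-231 ponatinib replicate 1 (adjusted p = 0.0308) and for *NFKBIA* without 4T1 DMSO replicate 1 (0.00475) or 4T1 ponatinib replicate 2 (0.0262). The members called in opposite directions were *NFKBIE* and *BIRC3*, while the IκB genes *NFKBIA* and *NFKBIZ* moved the same way in both lines. Of the subunits, the difference was called for *NFKB1* and not for *RELA*, *RELB* or *NFKB2*. Whether the difference goes with the role of a gene was not tested.

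**Figure D2:**
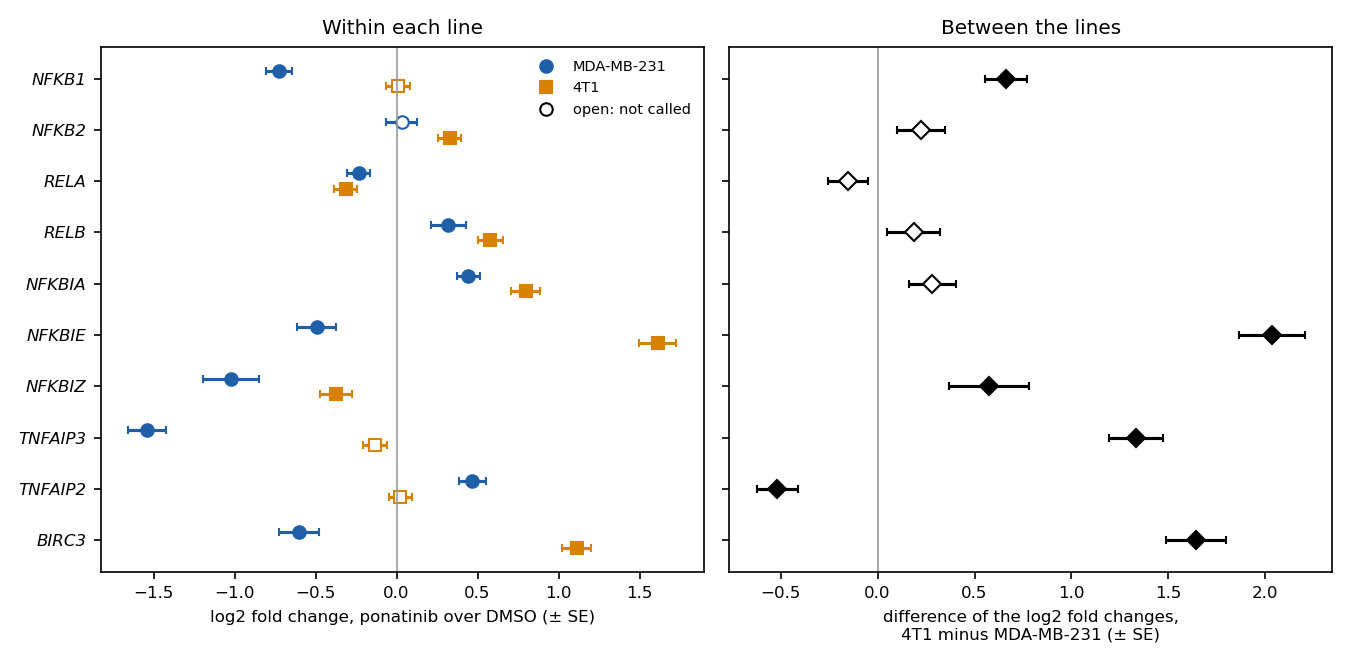
Log2 fold change of ponatinib over DMSO within each line (left, circles for MDA-MB-231 and squares for 4T1). The right panel shows its difference between the lines as estimated in the joint fit. Whiskers are 1 standard error, and open symbols mark values not called at an adjusted p under 0.05. *NFKBIE* and *BIRC3* lie on opposite sides of 0 in the lines, while *RELA*, *RELB*, *NFKBIA* and *NFKBIZ* lie on the same side.

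To compare levels between genes, CPM was divided by the kilobases of merged exons, which makes the scale depend on the annotated exons. In MDA-MB-231 with DMSO, *NFKB2* was highest at 53.4 ± 5.39 CPM per kb (SD, n = 3), followed by *NFKBIA* at 43.9 ± 1.76 and *RELA* at 43.1 ± 2.08, whose libraries overlapped. *NFKBIE* (37.5), *RELB* (29.0), *TNFAIP2* (17.4) and *TNFAIP3* (9.92) came next, each with all libraries above the next gene's, and at the low end the libraries of *NFKB1* (5.31) overlapped those of *BIRC3* (5.18), and those of *BIRC3* overlapped those of *NFKBIZ* (4.47). With ponatinib, *NFKBIA* led at 59.6 CPM per kb and overlapped *NFKB2* at 54.5, and *TNFAIP3* (3.41) overlapped *BIRC3* (3.41) and *NFKB1* (3.21).

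In 4T1 with DMSO, *Tnfaip2* was highest at 95.1 ± 0.592 CPM per kb (SD, n = 3), followed by *Rela* (56.5), *Nfkbia* (43.96) and *Nfkb2* (34.3), none overlapping the next. *Relb* (16.4), *Nfkb1* (15.7) and *Nfkbiz* (15.0) overlapped their neighbours, *Tnfaip3* stood at 13.1, and *Birc3* (2.96) and *Nfkbie* (1.93) were lowest. *Nfkbie* remained the lowest with ponatinib at 5.91 CPM per kb. With ponatinib, *Nfkbia* (76.3) passed *Rela* (45.5). With DMSO, *NFKBIE* thus ranked 4 of the 10 genes in the human line, in which it fell, and 10 in the mouse line, in which it rose.

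The balance between members was followed as a ratio of CPM per kb within each library, which does not depend on library scaling. The ratio of *NFKBIA* to *RELA*, the inhibitor to its main cargo, was 1.00, 1.02 and 1.03 with DMSO and 1.62, 1.68 and 1.59 with ponatinib in MDA-MB-231. In 4T1 it was 0.834, 0.715 and 0.777 with DMSO and 1.80, 1.63 and 1.61 with ponatinib. The transcript ratio was therefore higher in all ponatinib libraries of both lines, by 1.60-fold and 2.17-fold. The ratio of *RELB* to *RELA* rose 1.47-fold in MDA-MB-231, from 0.738, 0.660 and 0.620 to 1.13, 0.937 and 0.902, and 1.86-fold in 4T1, from 0.296, 0.292 and 0.280 to 0.536, 0.539 and 0.537. The ratio of *NFKB2* to *NFKB1* was 11.3, 9.37 and 9.47 with DMSO and 20.6, 15.0 and 15.8 with ponatinib in MDA-MB-231, and 2.20, 2.15 and 2.21 against 2.57, 2.75 and 2.89 in 4T1. None of these 6 comparisons overlapped, and each had a two-sided exact permutation p of 0.1, the smallest that 3 against 3 libraries allow. Each ratio holds at least 1 gene already called in that line, so its separation is no evidence apart from the results above. The share of other gene pairs whose ratio separates was not computed.

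**Figure D3:**
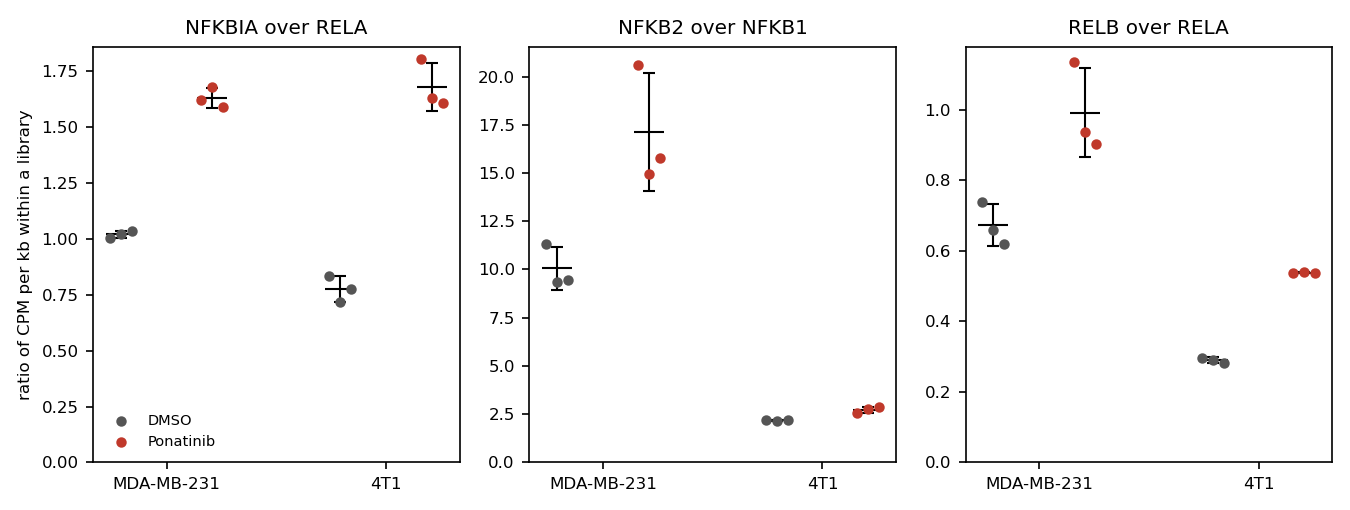
Ratio of CPM per kb between a pair of genes within each library (y axis, linear from 0), for 3 DMSO and 3 ponatinib libraries per line, with the bar at the mean and whiskers of 1 SD. All 3 ratios are higher with ponatinib in both lines, with no overlap, and *NFKB2* over *NFKB1* differs most between the lines, with a DMSO mean of 10.1 in the human and 2.19 in the mouse cells. This contrast between the lines depends in part on the annotated exons. They span 15679 bases for *NFKB1* and 5583 for *NFKB2* in human, and 12848 and 7901 in mouse.

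The remaining pathway was described with a list of 87 genes in 6 roles, of which 86 were matched and 76 tested in each line. Ponatinib lowered 33 and raised 16 of the human genes, whose median log2 fold change was -0.17, and lowered 23 and raised 31 of the mouse genes, whose median was 0.08. The shares of all genes called lower and higher (26.8% and 27.2% human, 29.4% and 29.5% mouse) are the background to these counts and to those of each role, and the count of 23 lower mouse genes is close to it. *IKBKG*, *IKBKE*, *OTUD7B*, *EDA2R*, *VCAM1*, *SELE* and *CCL5* were listed at 0 in every MDA-MB-231 library. A listed 0 does not show that a gene is not expressed, and what gave these zeros was not tested.

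Of the other subunits and IκB proteins, 1 of 5 tested fell and 3 rose in MDA-MB-231, while 1 of 4 fell and 2 rose in 4T1. *BCL3*, a nuclear IκB that works with p50 and p52 homodimers, rose in both lines, from 19.95 to 35.1 CPM (log2 fold change 0.81) and from 77.0 to 119.8 CPM (0.64). *NFKBIL1*, an IκB-like gene, also rose in the human line (0.77). *REL*, which encodes the subunit c-Rel, was scarce in MDA-MB-231 at 0.773 CPM with DMSO and 1.36 CPM with ponatinib (0.81, adjusted p = 0.0457 by edgeR). In 4T1, *Rel* stood at 14.1 and 15.1 CPM (0.10, adjusted p = 0.472).

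Of the IKK and upstream kinases, 2 of 10 fell and 4 rose in MDA-MB-231, while 3 of 11 fell and 4 rose in 4T1. *MAP3K14*, which encodes the kinase NIK at the head of the non-canonical pathway, rose in both, by 0.75 (standard error 0.09) and 0.34 (standard error 0.10) on the log2 scale. *Ikbke*, which encodes the kinase IKKε, rose from 20.1 to 50.3 CPM in 4T1 (1.32). Of the receptors, 5 of 10 fell and 2 rose in MDA-MB-231, while 3 of 11 fell and 5 rose in 4T1, where *Tlr2*, a receptor of bacterial lipoproteins, rose from 22.5 to 60.5 CPM (1.43).

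Of the 15 adaptors and ubiquitin ligases, 5 fell and 3 rose in the human line, and 2 fell and 8 rose in the mouse line. *TRAF1*, an adaptor that is itself an NF-κB target, fell in both, from 22.9 to 12.3 CPM in MDA-MB-231 (-0.90) and from 133 to 32.6 CPM in 4T1 (-2.03). In 4T1 it moved against *Birc3*, whose product binds TRAF proteins. Of the other negative regulators, 4 of 11 fell and 0 rose in MDA-MB-231, while 2 of 12 fell and 3 rose in 4T1. *CYLD*, a deubiquitinase that opposes IKK activation, fell in both lines (-0.76 and -0.32), and *TNIP1*, a partner of A20, fell in MDA-MB-231 from 579 to 437 CPM (-0.40) and rose in 4T1 from 154 to 216 CPM (0.49).

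The other target genes spread most widely, as 16 of 25 fell and 4 rose in MDA-MB-231 (median -0.49), while 12 of 23 fell and 9 rose in 4T1 (median -0.20). Where one group averaged 10 CPM or more, the largest falls in MDA-MB-231 were those of *IL1B* (-5.29), *PTGS2* (-3.46), *CSF2* (-3.18) and *IL1A* (-2.92), genes of cytokines and of the prostaglandin enzyme COX-2. In 4T1, with the same minimum, they were those of *Csf2* (-3.07), *Ptgs2* (-2.90) and the chemokine gene *Cxcl2* (-2.24). *GADD45B*, a stress-response gene, was the largest rise by the naming rule in both lines, with 0.88 in the human and 2.52 in the mouse cells, and *Ccl2*, a monocyte chemokine gene, rose from 121 to 329 CPM in 4T1 (1.44). The falls of *CSF2* and *PTGS2* were larger than any change among the 10 members.

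**Figure D4:**
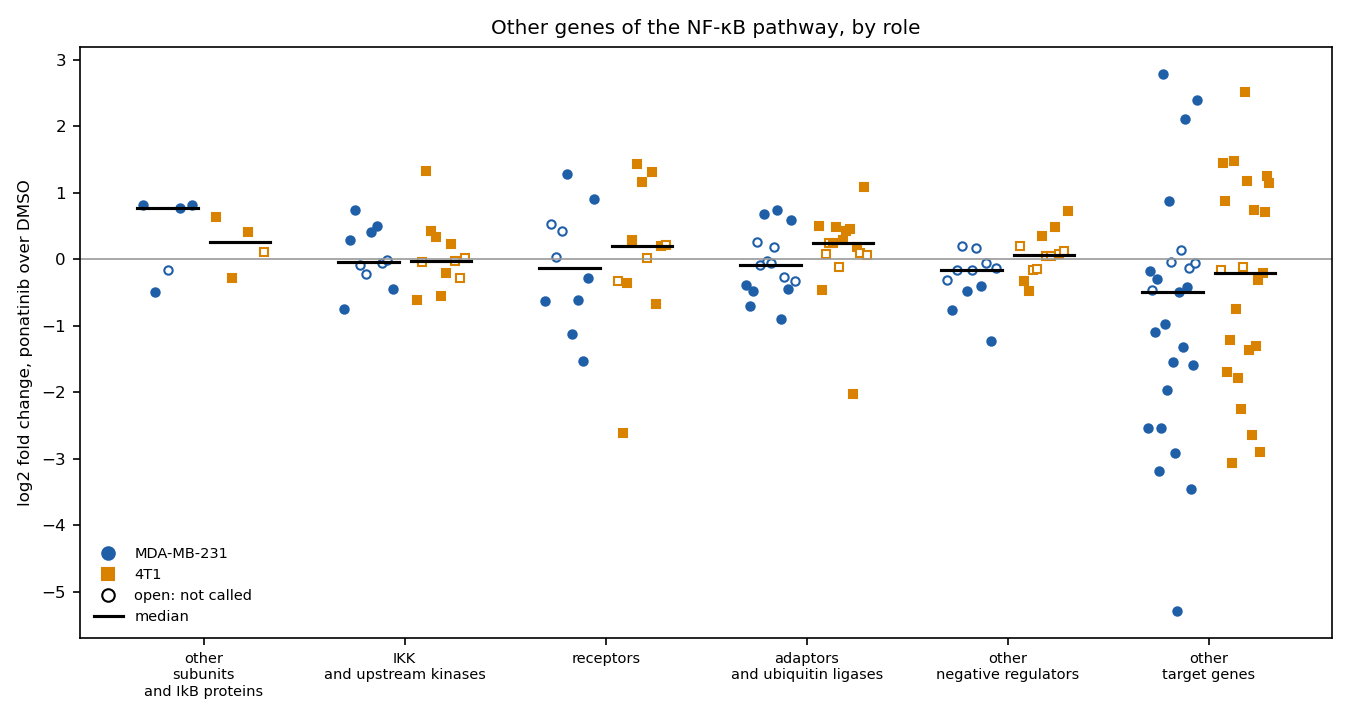
Log2 fold change of ponatinib over DMSO (y axis) for the tested genes of each role, with circles for MDA-MB-231, squares for 4T1, open symbols for genes not called and a black line at the median of each group. The target genes reach from -5.29 to 2.79 in MDA-MB-231, and the adaptors have a median of -0.09 in the human line and 0.25 in the mouse line.

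The genes whose pattern over the 12 libraries was most like that of the members with the largest changes were found by Pearson's r of log2 CPM centred within each line, among 12487 genes. These values are a description, since all libraries share the same treatment groups. For *NFKBIE* they were *PAQR7* (r = 0.989), *NT5DC2* (0.988) and *KIFC3* (0.987), whose log2 fold changes were likewise below 0 in the human and above 0 in the mouse line. For *BIRC3* they were *XDH*, *SPTSSA* and *LIMA1* (0.985, 0.984 and 0.984), with the same opposite signs. For *TNFAIP3* they were *UAP1*, *G3BP1* and *RFTN1* (0.991, 0.9898 and 0.989), and for *NFKBIZ*, *PFKFB3*, *ANKRD50* and *USP10* (0.982, 0.977 and 0.971). The mouse gene of *RFTN1* did not pass the filter on low counts in 4T1. An r over 0.95 was reached by 156 genes for *TNFAIP3*, 109 for *NFKBIE*, 41 for *BIRC3* and 20 for *NFKBIZ*, and the lists of 3 for these members shared no gene.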

How the data were processed

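RNA-seq was analysed in 12 libraries grouped by their labels, 3 per line and treatment. According to the methods, the authors aligned reads with HISAT2 (hg38, GRCm39) and took gene counts with HTSeq. Tool versions, the gene annotation and the strand setting are not given in the sources used here. The deposited files hold raw gene counts without normalization. Names, coordinates and exon lengths were taken from GENCODE v44 and vM39, in which 81.9% of the human identifiers (99.3% of counts) and 91.1% of the mouse ones (99.8%) were found.

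edgeR 4.0.16 under R 4.3.3 was used for each line, with TMM scaling after filterByExpr, the quasi-likelihood test and Benjamini-Hochberg adjustment over all genes tested, and for the interaction of line and treatment over genes with a shared symbol. The steps were tested on simulated data. The genes, lists and naming rule were chosen with earlier results of these data known. The rule names all 10 members, the 4 pathway genes per line that rose most and the 4 that fell most (adjusted p under 0.05, groups without overlap, higher mean of 10 CPM or more), 6 further pathway genes whatever their values, and the 3 genes most like each of the 4 members with the largest changes.

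Replicates differed beyond sampling noise. The chi-square per gene was 2.86 to 6.62 between replicates 2 and 3 of a group, and 8.17 to 14.7 in pairs with replicate 1. The main fits held no block for the replicate number, and the adjusted p-values above come from them unless another setting is named. The deviations of same-numbered DMSO and ponatinib libraries from their group means correlated by 0.345, 0.111 and 0.133 for the human replicates 1 to 3 and by 0.213, 0.119 and 0.115 for the mouse ones, all over 0.1, and pairing by number was assumed from these values alone. Alternatives were DESeq2 1.42.0, its size factors in edgeR, total counts without TMM, a minimum of 10 counts in all libraries or no filter at all, a block for the replicate number, leaving out each replicate, and a fold of at least 1.5.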

Additional observations from a re-analysis of the deposited data

Results flagged for a closer look

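The response to ponatinib differed between the lines for 6 of the 10 members (interaction of line and treatment, edgeR, adjusted p under 0.05). Values are the log2 fold change in 4T1 minus that in MDA-MB-231 in the joint fit. They are not exact subtractions of the fold changes of the separate fits. The differences were 0.66 for *NFKB1*, 2.03 for *NFKBIE*, 0.57 for *NFKBIZ*, 1.33 for *TNFAIP3*, -0.52 for *TNFAIP2* and 1.64 for *BIRC3*. Among the pathway genes named above, it differed by -0.78 for *REL*, -0.48 for *MAP3K14*, 0.92 for *TLR2*, -1.20 for *TRAF1*, 0.37 for *CYLD*, 0.82 for *TNIP1*, -1.34 for *CXCL2*, 0.49 for *PTGS2* and 1.56 for *GADD45B*. Of 67 pathway genes tested in both lines, 35 differed. Of all genes compared 41.9% did, and these genes include some that were not tested in both lines. Of the 67, 6 were called in opposite directions, where 10.6% of all genes tested in both lines were. They were *BIRC2*, *TNIP1*, *OTULIN*, *TNFRSF11A* and *TNFRSF1A*, lower in MDA-MB-231 and higher in 4T1, and *CXCL10*, the reverse. *OTULIN*, *TNFRSF11A*, *TNFRSF1A* and *CXCL10* are named for their values. Line and species cannot be told apart in this design.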

How the results depend on the processing

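Of 120 refits of single members in MDA-MB-231, 112 kept the direction and the side of the threshold, as did 115 of 120 in 4T1 and 168 of 180 for the difference between the lines. No call was reversed. The sign changed for uncalled genes: *NFKB2* in MDA-MB-231 ranged from -0.065 to 0.10 with each replicate left out, below 0 without DMSO replicate 2, DMSO replicate 3 or ponatinib replicate 1. *Nfkb1* in 4T1 was -0.00187 with DESeq2 and -0.00189 with its size factors, and ranged from -0.046 to 0.045 with each replicate left out, below 0 without DMSO replicate 2, DMSO replicate 3 or ponatinib replicate 1.

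At a fold of at least 1.5, 0 of the members called higher (3 before) and 4 of those called lower (6 before) stayed called in MDA-MB-231, and 3 higher (5 before) and 0 lower (2 before) in 4T1. The pathway list then gave 21 lower (33 before) in MDA-MB-231, and 14 lower (23 before) and 16 higher (31 before) in 4T1. With each replicate left out, MDA-MB-231 had 5 to 6 members lower and 2 to 3 higher, 4T1 had 2 lower and 5 higher, and 5 to 7 members differed between the lines. With the replicate number as a block, 8 members differed between the lines, and no call of a member within a line changed. The pathway list then gave 41 human and 25 mouse genes lower, and 20 human and 33 mouse genes higher. *NFKB2* (0.32) and *NFKBIA* (0.38) also differed between the lines with total counts in place of TMM, which moved the median of all genes to 0.11 and 0.12 in the 2 lines. The cause of these changes was not tested. With 3 libraries per group of 15012884 to 18951493 counts, standard errors of the members were 0.07 to 0.17 on the log2 scale, and changes of that size were not detectable.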
